A study of Mus musculus with 2 samples.

Results

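The Notch receptors, their ligands and the fringes were examined in brain RNA of wild type and *Plzf* lu/lu mouse embryos. The members are 10 genes chosen by name, namely the receptors *Notch1*, *Notch2* and *Notch3*, the ligands *Dll1*, *Dll3*, *Jag1* and *Jag2*, and the glycosyltransferases *Lfng*, *Mfng* and *Rfng*. They are 10 of the 37074 gene names on the array, and every one of them had a probe, with 15 probes in all. Notch receptors are cleaved when a ligand on a neighboring cell binds them, and the freed intracellular part enters the nucleus and switches on Hes and Hey repressors together with Rbpj. In the embryonic neural tube this signal keeps progenitors from becoming neurons, while cells with high proneural factors carry Delta ligands and hold back their neighbors. Fringe enzymes add sugars to the receptor and change which ligands it answers to.

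The study asked how gene expression in the developing brain differs without functional Plzf, a zinc finger transcription factor encoded by *Zbtb16*. Each of 2 Agilent arrays compared RNA of a wild type brain sample, strain C57BL/6, labeled with Cy3, with RNA of a luxoid brain sample labeled with Cy5, both at E10.5. The labels call the arrays biological replicates, the methods give the tissue as forebrain and midbrain, and the number of embryos behind each sample is not given in the sources used here. The dyes were the same on both arrays and both lay on 1 slide, so an effect of the dye on a probe cannot be told apart from that of the genotype. The luxoid mouse carries a spontaneous base change in *Plzf* that truncates the protein, and no agent was given to either genotype. The probes read the amount of RNA and not the changed base. Values are processed signals, which are spot intensities after background subtraction and dye normalization, and log2 ratios with the luxoid channel over the wild type channel.

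The mutated gene was examined first. The main probe of *Zbtb16* had a signal of 433 in wild type and 172 in *Plzf* lu/lu on array 1, and of 546 and 211 on array 2. Both *Plzf* lu/lu values were below both wild type values, and the main probe was under the signal filter described below. A second probe of *Zbtb16* gave 32.1 and 17.6 on array 1 and 32.2 and 15.1 on array 2, in the same direction.

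The tissue label was checked against markers. All channels showed the 5 forebrain genes well above background, led by the head homeobox gene *Otx2*. Of the midbrain genes, *En2*, *Pax5* and *Lmx1b* were well above background in every channel and *En1* was not. Of the hindbrain genes, *Egr2*, *Hoxa2* and *Hoxb1* were not well above background in every channel, and *Gbx2* was. Genes of other cell types were measured too, since all 10 endothelial, 5 mural, 6 mesenchymal, 5 surface ectoderm and 5 erythroid genes stood well above background throughout. In such bulk RNA, fewer cells of a type and less RNA per cell cannot be told apart.

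Of the 10 members, 6 passed a filter that asks for a processed signal above 200 and a signal-to-noise ratio of at least 5 in all 4 channels, namely *Notch2*, *Notch3*, *Dll3*, *Jag1*, *Mfng* and *Rfng*. The remaining 4, *Notch1*, *Dll1*, *Jag2* and *Lfng*, were dimmer than that in at least 1 channel, but like all 10 members were well above background in every channel. Among the members that passed, 1 was higher in *Plzf* lu/lu by more than 1.3-fold on both arrays and 0 were lower to that extent on both. Over all 10600 genes that passed, 2.58% were higher and 0.736% lower by this rule. Among the genes well above background in every channel, 2 of the 10 members were higher and 0 lower, against 2.52% and 2.07% of 23283 genes. Whether these counts set the members apart from the other genes was not tested.

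In limma with Benjamini-Hochberg adjustment, 0 of the 6 members had an adjusted p under 0.05, and 2 of them, *Notch2* and *Jag1*, had an unadjusted p under 0.05. Over all genes that passed, 3 genes, or 0.0283%, were under 0.05 after adjustment, and 27.8% were so before it. An exact two-sided sign-flip test over 2 arrays cannot go below 0.5 and was not used. The median log2 ratio of the 6 members was 0.17, with 0.09 on array 1 and 0.26 on array 2, beside a median of 0.01 over all genes tested. Over all 10 members the median was 0.12, with 0.02 on array 1 and 0.29 on array 2. The log2 ratio was above 0 in 6 members on array 1 and in 9 members on array 2. The median over all genes well above background was 0.004 on array 1 and -0.001 on array 2. The sign was the same on both arrays in 7 of the 10 members and in 66.7% of those genes.

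The receptors came first. *Notch2*, a receptor of neural progenitors and of many other tissues, had a signal of 584 in wild type and 904 in *Plzf* lu/lu on array 1, and of 598 and 779 on array 2. Both *Plzf* lu/lu samples were above both wild type samples. The log2 ratios of *Notch2* were 0.63 and 0.38, with a mean of 0.51 (SE 0.09 in limma, n = 2 arrays) and an adjusted p of 0.0577. *Notch2* was the member that went beyond 1.3-fold on both arrays, but with a fold of 1.303 on array 2 it sat at the threshold. With the trend of the ratio on probe GC content removed, its log2 ratio on array 2 was 0.377, against 0.379 for 1.3-fold, and the call was lost. With normexp background correction and centring on the genes that passed, it was 0.341 and the call was lost as well, while the adjusted p in limma was 0.0272. Over the settings in which it was fitted with the same eBayes model, the adjusted p of *Notch2* lay between 2.45e-11 and 0.538.

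*Notch3*, a receptor found in progenitors and in the mural cells of vessels, had a signal of 2399 in wild type and 2441 in *Plzf* lu/lu on array 1, and of 2231 and 2374 on array 2. The genotypes overlapped. For *Notch3* the log2 ratios were 0.02 and 0.09, and its adjusted p was 0.644. *Notch1*, the receptor most studied in cortical progenitors, had a signal of 97.0 in wild type and 59.1 in *Plzf* lu/lu on array 1, and of 87.8 and 76.6 on array 2. Both *Plzf* lu/lu samples were below both wild type samples, and *Notch1* was the only member with a log2 ratio below 0 on both arrays. Its log2 ratios were -0.72 and -0.20, and with the genes well above background its adjusted p was 0.288. The mean log2 ratio of *Notch1* was below 0 in all 7 scalings tried, between -0.66 and -0.11, although on array 2 it was 0.08 with normexp and centring on all gene spots.

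**Figure D1:**
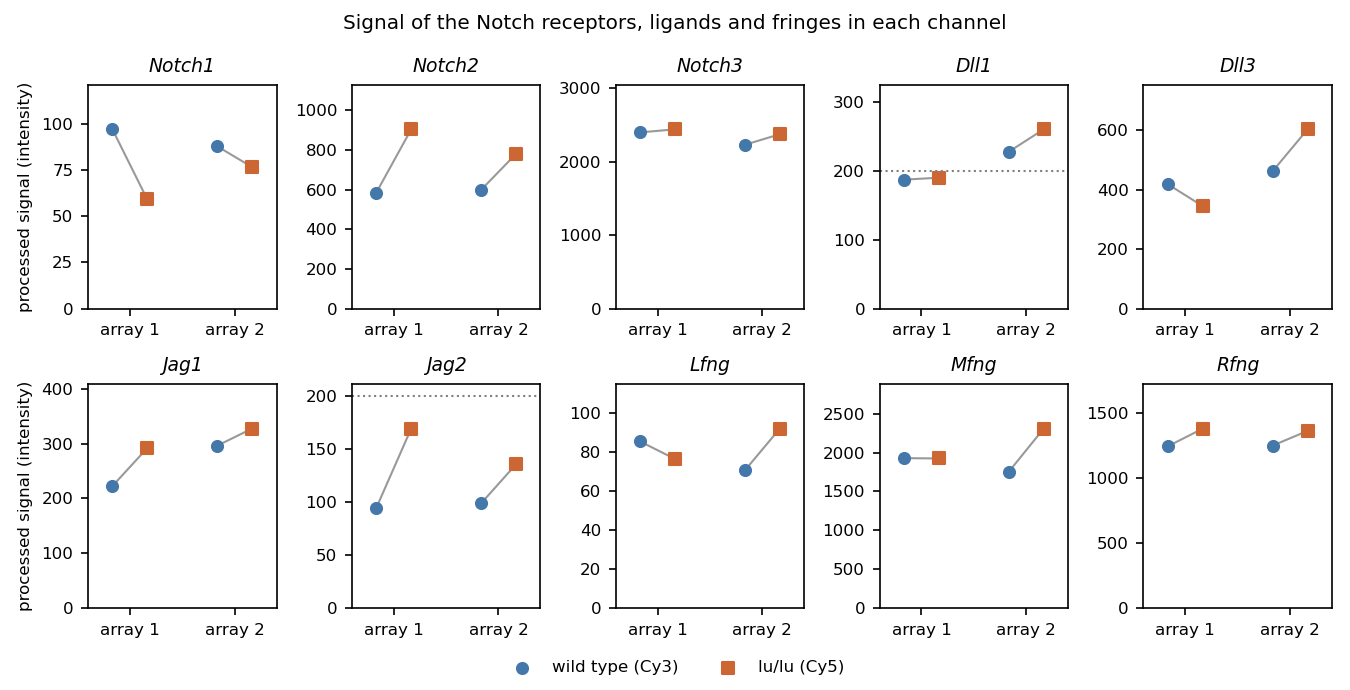
Processed signal (intensity, linear axis from 0) of the main probe of each member in the wild type channel (circle) and the *Plzf* lu/lu channel (square) of each array, with a line joining the channels of an array. The dotted line in the panels of *Dll1* and *Jag2* marks the filter at 200, which lies above the panels of *Notch1* and *Lfng*. *Plzf* lu/lu is above wild type on both arrays for *Notch2*, *Notch3*, *Dll1*, *Jag1*, *Jag2* and *Rfng* and below it on both for *Notch1*.

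Among the Delta ligands, *Dll1*, which activates Notch on neighboring cells, had a signal of 187 in wild type and 190 in *Plzf* lu/lu on array 1, and of 228 and 260 on array 2. The genotypes overlapped, and the wild type sample of array 2 was above the *Plzf* lu/lu sample of array 1. *Dll1* had log2 ratios of 0.02 and 0.19, and with the genes well above background its adjusted p was 0.588. *Dll3*, a divergent Delta that is known to block Notch within the cell that makes it, had a signal of 419 in wild type and 345 in *Plzf* lu/lu on array 1, and of 463 and 603 on array 2. The *Plzf* lu/lu samples were the lowest and the highest of all, so *Dll3* went in opposite directions on the arrays. Its log2 ratios were -0.28 and 0.38, with an SD of 0.47 between arrays, against a median SD of 0.08 over all genes tested. The adjusted p of *Dll3* was 0.849, and its mean of 0.05 changed sign with the GC trend removed.

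The Jagged ligands were the class in which each member was above 0 on both arrays. *Jag2* had a signal of 94.4 in wild type and 169 in *Plzf* lu/lu on array 1, and of 98.7 and 136 on array 2. Both *Plzf* lu/lu samples were above both wild type samples. The log2 ratios of *Jag2* were 0.84 and 0.46, beyond 1.3-fold on both arrays, but its signal stayed under 200 in every channel and it was outside the genes tested. With the genes well above background, the adjusted p of *Jag2* was 0.252. With normexp and centring on the genes that passed, the log2 ratios of *Jag2* were 0.32 and 0.15 and it was no longer beyond 1.3-fold.

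*Jag1*, a ligand used in the nervous system, the inner ear and vessels, had a signal of 223 in wild type and 292 in *Plzf* lu/lu on array 1, and of 296 and 328 on array 2. On each array *Plzf* lu/lu was the higher, but the genotypes overlapped across arrays. *Jag1* had log2 ratios of 0.39 and 0.14, with a mean of 0.27 (SE 0.09 in limma, n = 2 arrays) and an adjusted p of 0.136. With normexp and centring on the genes that passed, the ratio on array 2 was -0.01.

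Among the fringes, *Mfng* had a signal of 1929 in wild type and 1924 in *Plzf* lu/lu on array 1, and of 1753 and 2309 on array 2. The *Plzf* lu/lu sample of array 2 stood above the other samples, which lay close together. *Mfng* had log2 ratios of 0.00 and 0.40, and its adjusted p was 0.302. *Rfng* had a signal of 1247 in wild type and 1383 in *Plzf* lu/lu on array 1, and of 1252 and 1365 on array 2. Both *Plzf* lu/lu samples were slightly above both wild type samples, and the SD between arrays, 0.02, was the smallest of the members. For *Rfng* the log2 ratios were 0.15 and 0.12, and its adjusted p was 0.282. *Lfng*, which oscillates in the forming somites and is also made by neural progenitors, had a signal of 85.2 in wild type and 76.3 in *Plzf* lu/lu on array 1, and of 70.4 and 91.8 on array 2. As with *Dll3*, the arrays went in opposite directions. *Lfng* had log2 ratios of -0.16 and 0.38, and with the genes well above background its adjusted p was 0.738.

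**Figure D2:**
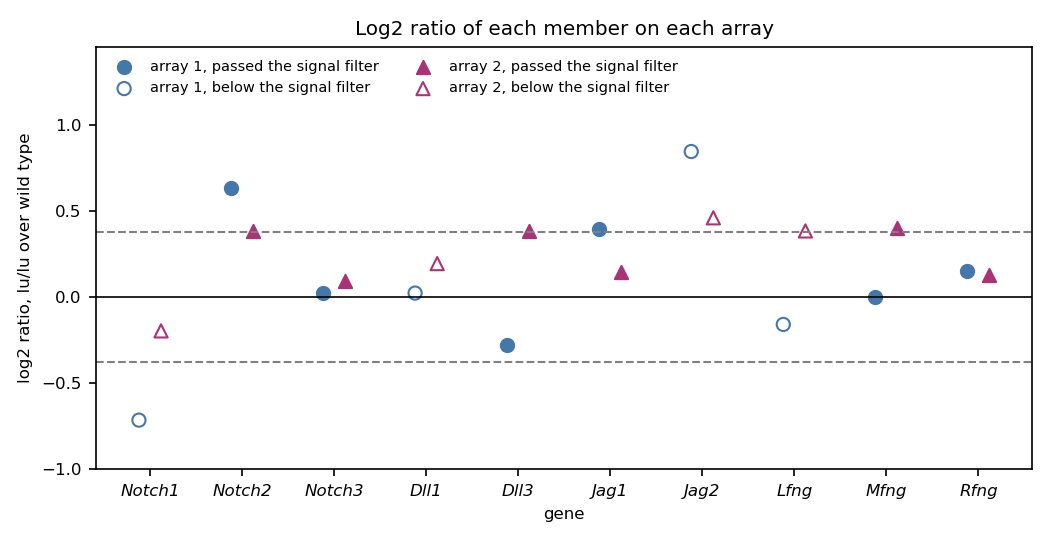
Log2 ratio, luxoid over wild type, for the main probe of each member on array 1 (circles) and array 2 (triangles), with open symbols for members below the signal filter. Dashed lines mark 1.3-fold in either direction. *Notch2* and *Jag2* are past the upper line on both arrays, *Notch2* on array 2 at 0.38, and no member is past the lower line on both.

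The spread between arrays was larger than that between spots of 1 probe. Probes with repeated spots above the signal minimum (290 on array 1 and 288 on array 2) had a median SD of 0.036 on each array, while the median SD between arrays was 0.084 over the genes tested. Over the genes well above background in every channel it was 0.112, and over the 10 members, all of them in that set, it was 0.22. Each probe of a member had 1 spot on each array, so no spread within an array can be given for it.

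Of the members, 5 had a second probe, and 4 of these probes were not well above background in at least 1 channel, for *Notch1*, *Notch2*, *Lfng* and *Rfng*. They set only a bound and carry no direction. The second probe of *Dll1*, for the transcript ENSMUST00000143460, was well above background in every channel, with 13.2 in wild type and 17.2 in *Plzf* lu/lu on array 1 and 17.7 and 15.2 on array 2. Its log2 ratios of 0.38 and -0.22 differed in sign, while those of the main probe of *Dll1* did not. With the GC trend removed the main probe differed in sign too, at -0.06 and 0.16, as it did with normexp and centring on passing genes, at -0.23 and 0.05. For the other members, each ratio therefore rests on 1 probe.

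The start of the probe is shown for the members whose ratio was furthest from 0 in either direction and for *Jag1*, because each of these ratios rests on that sequence. The first 30 of 60 bases are printed 5′ to 3′, with positions in mm9 from the deposited annotation. Whether a probe lies in coding or in untranslated sequence was not examined. The probe of *Notch2* (NM_010928) lies at chr3:97953914-97953973 on the plus strand, that of *Jag2* (NM_010588) at chr12:114146887-114146946, that of *Jag1* (NM_013822) at chr2:136907433-136907492 and that of *Notch1* (NM_008714) at chr2:26319440-26319499, the last 3 on the minus strand.
Notch2: ccacttgaagtcttgcatagaaatgaacca
Jag2: ttgtataaattattcaacggctgtcaggcg
Jag1: ggagtattctcataagctagttgaatactt
Notch1: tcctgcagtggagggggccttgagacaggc

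The base composition of the probe moved with the ratio across genes. Over the genes tested, which are not independent replicates, the Spearman correlation of the log2 ratio with probe GC content was -0.38 on array 1 and -0.20 on array 2. Probe GC content was 55.0% for *Notch1*, 41.7% for both *Notch2* and *Jag2*, and 36.7% for *Jag1*, beside a median of 41.7% over the genes tested. With the trend removed, the log2 ratios were -0.62 and -0.17 for *Notch1*, 0.62 and 0.38 for *Notch2*, 0.83 and 0.45 for *Jag2*, and 0.30 and 0.11 for *Jag1*. Each kept its sign on both arrays, while the mean of *Dll3* and the ratio of *Dll1* on array 1 went below 0. The log2 ratios of *Rfng* became 0.28 and 0.17.

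The rest of the pathway was read from 6 lists of 50 genes, all of which had a probe. Of these genes 30 passed the filter, and 0 of the 30 went past 1.3-fold with the same sign on each array. Among all genes that passed, 2.58% were higher and 0.736% lower by this rule. In limma, 0 of the 30 had an adjusted p under 0.05, the lowest being 0.0609. Before adjustment 7 of the 30 were under 0.05 in limma, against 27.8% of all genes that passed. The median log2 ratio of the 30 was 0.12, with 0.12 on array 1 and 0.06 on array 2. Of the 47 pathway genes well above background in every channel, 3 were higher and 1 was lower by more than 1.3-fold on both arrays. Among all 23283 genes well above background, 2.52% were higher and 2.07% lower.

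The genes that cut the receptor included 7 that passed, with a median log2 ratio of -0.13, and 0 were beyond 1.3-fold on both arrays. Over all 10 of these genes, each well above background, the median was 0.02, with 0.10 on array 1 and -0.11 on array 2. The brightest of them, *Furin*, the protease that cuts the receptor on its way to the surface, had log2 ratios of 0.00 and -0.27. Its probe was not matched to RefSeq by accession. The probe had a signal of 79626 in wild type and 79893 in *Plzf* lu/lu on array 1, and of 89074 and 74032 on array 2. Whether it reads *Furin* RNA alone was not examined. Of the genes for ligand uptake, receptor glycosylation and turnover, 10 passed, with a median of 0.09. The brightest, *Dtx4*, a ubiquitin ligase of the Deltex family, had log2 ratios of -0.20 and 0.12. *Numb*, an inhibitor of Notch that is passed unequally to daughter cells, had a signal of 37.1 in wild type and 25.4 in *Plzf* lu/lu on array 1, and of 33.9 and 34.0 on array 2. The samples of *Numb* differed on array 1 only.

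Of the nuclear complex, 6 genes passed, with a median log2 ratio of 0.14, and 5 of them were above 0 on both arrays. *Rbpj*, the DNA-binding partner of the cleaved receptor, had a signal of 793 in wild type and 934 in *Plzf* lu/lu on array 1, and of 869 and 867 on array 2. The genotypes differed on array 1 only, and a second probe of *Rbpj* gave log2 ratios of -0.10 and -0.04. *Snw1*, the brightest gene of the list, had log2 ratios of 0.19 and 0.09.

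Among the other receptors and ligands, *Notch4*, a receptor of vessels, had a signal of 580 in wild type and 584 in *Plzf* lu/lu on array 1, and of 601 and 650 on array 2. The values of *Notch4* lay close together, with an adjusted p of 0.629, and its other 2 probes were not well above background in every channel. *Dll4*, the Delta ligand of vessels, was not well above background in wild type on array 1, and its signal lay between 8.3 and 11.7. *Dlk1*, a non-canonical ligand and the brightest gene of this list, had a signal of 4919 in wild type and 12364 in *Plzf* lu/lu on array 1, and of 7908 and 8529 on array 2. The difference in *Dlk1* lay on array 1, and its adjusted p was 0.159. *Dner*, a neuronal protein reported as a ligand of Notch, was below the filter, with log2 ratios of 0.78 and 1.12, and is named because it was beyond 1.3-fold on both arrays among the genes well above background.

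Of the Hes and Hey genes, 4 passed, with a median log2 ratio of 0.15, and 0 were beyond 1.3-fold on both arrays. Over the 6 well above background in every channel the median was 0.06, with -0.01 on array 1 and -0.04 on array 2. *Hes1*, an oscillating repressor in progenitors, had a signal of 321 in wild type and 412 in *Plzf* lu/lu on array 1, and of 305 and 292 on array 2. *Hes5*, a direct target of Notch in the neural tube, had 11475 and 10134 on array 1 and 11611 and 16090 on array 2. Both went in opposite directions on the arrays, with adjusted p of 0.443 for *Hes1* and 0.566 for *Hes5*, and the second probe of *Hes5* gave log2 ratios of -0.60 and 0.03. *Hey2* was not well above background in every channel. *Hey1*, named after its values were seen as the pathway gene with the lowest adjusted p, 0.0609, had log2 ratios of 0.35 and 0.55. *Hes3*, a repressor made around the isthmus, was below the filter in *Plzf* lu/lu on array 2, and its signal was 486 and 209 on array 1 and 485 and 150 on array 2, with the lower value in *Plzf* lu/lu.

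None of the 5 proneural genes passed the filter, and 4 were well above background in every channel. Of these 4, 2 were higher and 0 lower by more than 1.3-fold on both arrays, with a median log2 ratio of 0.36. That median was 0.17 on array 1 and 0.52 on array 2. Among all genes well above background in every channel, 2.52% were higher and 2.07% lower by this rule. *Neurog1* (-0.20 and 0.05) and *Neurog3* (-0.06 and -0.05) were not beyond 1.3-fold on either array. *Neurog2*, which drives neuronal differentiation and was named after its values were seen, was beyond 1.3-fold on both arrays, with log2 ratios of 0.40 and 1.16. *Dll1* and *Dll3*, which proneural factors are known to switch on, were not beyond 1.3-fold on both arrays. *Dll1* was below the filter, *Dll3* went in opposite directions on the arrays, and a link of either to the proneural genes was not tested. *Atoh1*, a proneural factor of the dorsal hindbrain that was also named after its values were seen, had a signal of 91.6 and 83.9 in wild type and was not well above background in *Plzf* lu/lu, at least 3.32-fold lower. That bound compares the mean of the wild type channels after loess and Aquantile scaling with the lowest signal well above background. Where the probe's own *Plzf* lu/lu signal was higher, that was used instead. The bound is open to dye bias. The log2 ratios of the processed signals of *Atoh1*, and not the bound, had an adjusted p of 0.506 in limma without a filter. *Hes3* is among the genes the study listed from these arrays, so its direction is not independent evidence.

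Some markers of cell types and regions were beyond 1.3-fold on both arrays. By this rule 2.58% of all genes that passed were higher and 0.736% lower. In limma none of the markers had an adjusted p under 0.05, by the signal filter or among the genes well above background. Of the neuron markers, 5 of 6 passed and 2, *Stmn3* and *Elavl4*, were higher by more than 1.3-fold on both arrays, with a median over those that passed of 0.33 on array 1 and 0.75 on array 2. Over all 6 it was 0.14 and 0.77, and *Dcx* (-0.48 and 0.95), *Elavl3* (-0.14 and 0.52) and *Stmn2*, the brightest (-0.04 and 0.60), were below 0 on array 1. The summed signal of the neuron markers was 7082 in wild type and 7993 in *Plzf* lu/lu on array 1, and 6212 and 10760 on array 2. Neural progenitor markers all passed, with *Sox2* higher by more than 1.3-fold on both arrays and a list median of 0.14 on array 1 and 0.41 on array 2. Their summed signal was 28335 and 28463 on array 1 and 25682 and 31989 on array 2, and the brightest, *Vim*, had log2 ratios of 0.10 and 0.18. *Fabp7* (-0.41 and 0.50) and *Nes* (-0.08 and 0.44) went in opposite directions on the arrays. The part of neurons and progenitors in the ratios of the members was not tested.

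The region markers went in different directions, and none of them had an adjusted p under 0.05 in limma. Forebrain markers had a median log2 ratio of 0.38 on array 1 and 0.62 on array 2, and *Six3* and the brightest, *Otx2*, were higher by more than 1.3-fold on both arrays. *Emx2* and *Lhx2* went in opposite directions on the arrays, with log2 ratios of -0.16 and 0.62 for *Emx2* and -0.18 and 0.86 for *Lhx2*. The summed signal of the forebrain markers was 7370 in wild type and 8549 in *Plzf* lu/lu on array 1, and 5667 and 9377 on array 2. Midbrain markers summed to 2472 and 1063 on array 1 and 2860 and 1465 on array 2, with *En2* the brightest gene, which was lower in *Plzf* lu/lu with log2 ratios of -1.86 and -1.25. The other midbrain genes well above background did not share this, with log2 ratios of -0.03 and -0.19 for *Lmx1b* and -0.26 and 0.22 for *Pax5*. Their part in the ratios of the members was not tested, and neither was that of the dissection.

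Most endothelial markers were lower in *Plzf* lu/lu, and mural markers were mixed. Of the 10 endothelial genes, 6 were lower by more than 1.3-fold on both arrays and 0 higher among the genes well above background, and of the 4 that passed the filter *Emcn* and *Plvap* were. By this rule 2.07% of all genes well above background and 0.736% of all genes that passed were lower. In limma the lowest adjusted p of the endothelial genes was 0.0510 after the filter and 0.252 among the genes well above background. Their summed signal was 5499 in wild type and 4581 in *Plzf* lu/lu on array 1, and 6121 and 4265 on array 2, and the brightest, *Egfl7*, had log2 ratios of -0.16 and -0.41. Mural markers summed to 10319 and 7944 on array 1 and 8439 and 6808 on array 2, with *Tagln* lower by more than 1.3-fold on both arrays and the brightest, *Acta2*, at -0.39 and -0.21, while *Pdgfrb* (0.09 and -0.30) and *Cspg4* (0.18 and -0.15) were above 0 on array 1. *Notch4* and *Notch3*, which vessels express, had log2 ratios near 0 on both arrays, and the part of vessel cells in the values of *Notch1*, *Jag1* and the other members was not tested.

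Mesenchyme markers summed to 7551 in wild type and 6981 in *Plzf* lu/lu on array 1, and to 6943 and 5552 on array 2, with 0 of 6 beyond 1.3-fold on both arrays and *Col3a1* the brightest, at -0.17 and -0.47. The summed signals of the surface ectoderm and of the erythroid markers went in opposite directions on the arrays. Not every gene did, with log2 ratios of 0.03 and 0.16 for *Trp63* and -1.20 and -0.15 for *Alas2*. The surface ectoderm markers summed to 8135 and 12255 on array 1 and 11643 and 8950 on array 2, with *Krt18* the brightest. The erythroid markers had a median log2 ratio of -1.02 on array 1 and 0.07 on array 2, and the signal of the brightest, *Hbb-y*, was 146807 and 84558 on array 1 and 56549 and 81173 on array 2. *Sox2*, *Stmn3*, *En2*, *Emcn* and *Plvap* were also listed by the study from these arrays.

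**Figure D3:**
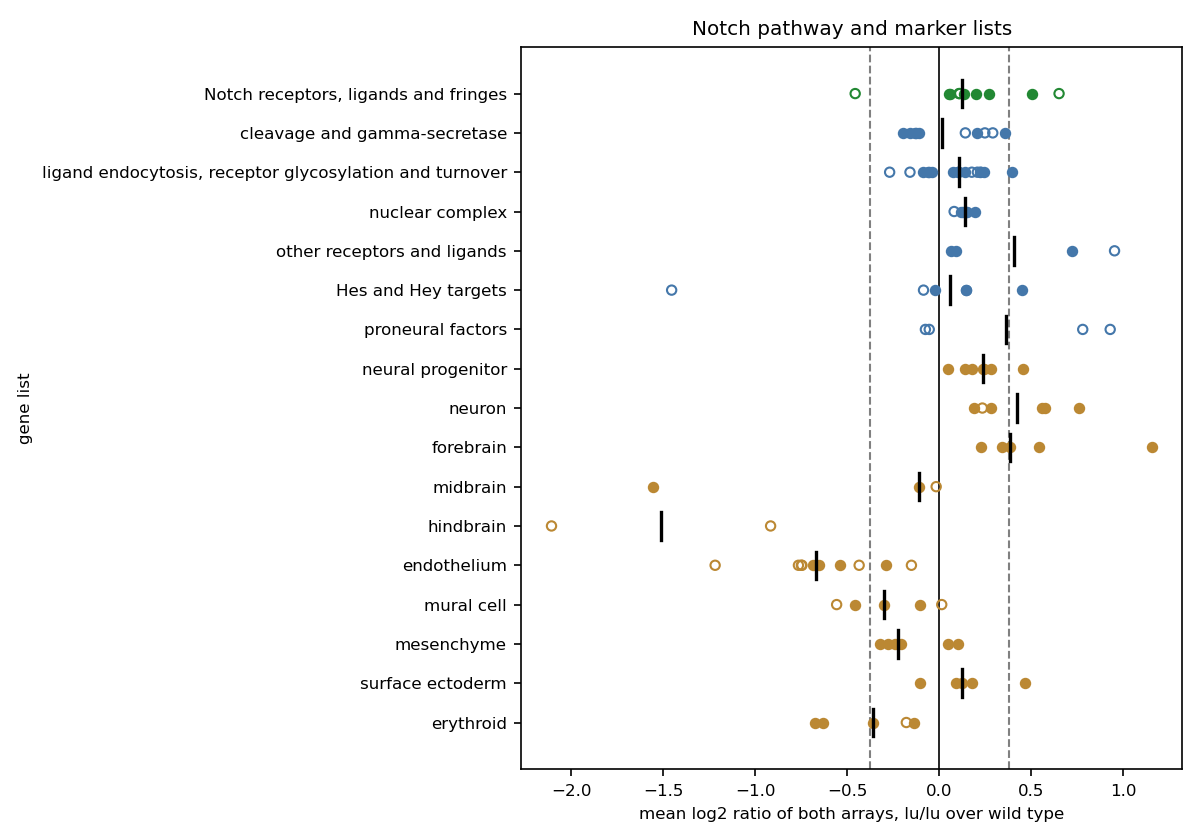
Mean log2 ratio of both arrays, *Plzf* lu/lu over wild type, for each gene well above background in every channel (points) in the member list (green), the pathway lists (blue) and the marker lists (brown), with open points for genes below the signal filter. Vertical bars are list medians over the points, 0.12 for the members, and dashed lines mark 1.3-fold in either direction.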

How the data were processed

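Wild type and *Plzf* lu/lu RNA was measured on 2 arrays with 2 colors. Per the file headers, the authors used Feature Extraction 10.7.3.1, which subtracted background and normalized the dyes by rank-consistency LOWESS within each array, giving processed signals as intensity and their ratio of Cy5 to Cy3 as log10. A deposited file holds this ratio as log2, with a median of 0 on each array, rounded but in the same direction and scale. Array positions are those of mm9.

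Controls and spots marked as outliers were dropped, repeated spots were averaged as log2, and the brightest probe stood for a gene. The signal-to-noise ratio was the mean signal less the median background, over the SD of background pixels. No gene spot was saturated. All 10 members matched RefSeq (GRCm38.p6) by accession. The log2 ratios of all genes were fitted with limma 3.58.1 in R 4.3.3 (intercept, eBayes) and p values were adjusted by Benjamini-Hochberg across the tested genes. Only 1 residual degree of freedom was left for each gene, so the test leans on variance pooled across genes, and the number of arrays limits the precision. The fit was also run on simulated data with known changes and no dye effect, which cannot show how dye bias acts in these arrays. Python 3.11.15, pandas 2.3.3, numpy 2.4.6, statsmodels 0.14.6, matplotlib 3.10.9 and version 1.17.8 of data.table were also used.

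Named genes come from the members, the list genes beyond 1.3-fold on both arrays after the filter (at most 8 a list), the brightest passing gene of each list, *Zbtb16*, *Hes1*, *Hes5*, *Rbpj*, *Numb*, *Notch4* and *Dll4*, with others marked where they appear or named after their values were seen, because they were not well above background, were beyond 1.3-fold without passing the filter, or did not share the direction of their list. Some list genes that this rule would name are not reported here by name, but count in list medians and sums. The members and lists were chosen with earlier results of these data known. Alternatives were normexp (offset 50) with loess or with centring on all gene spots or on passing genes, centred processed signals, the deposited log2 values, other filters, the mean over probes, removal of the GC trend (lowess, span 0.67), eBayes with trend, 1.5-fold, and each array alone.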

Additional observations from a re-analysis of the deposited data

How the results depend on the processing

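With normexp and centring on all gene spots, which moved the median of the genes tested by 0.55 on the log2 scale, 6698 genes were higher and 4 lower beyond 1.3-fold, 9644 had an adjusted p under 0.05, 5 members were higher, and the median of the members was 0.63, close to that of all genes, 0.55. Of the calls, 99.9% were then higher, against 77.8% as reported. With normexp and centring on passing genes the numbers were 455, 120, 1514 and 0 members, the median of the members was 0.08, and the means of *Dll3*, *Dll1* and *Lfng* were below 0, at -0.0480, -0.09 and -0.26. With the GC trend removed, 1 gene had an adjusted p under 0.05, 0 members were higher, and *Dll3* had a mean of -0.0317. Centred processed signals gave 600 genes with an adjusted p under 0.05, *Notch2* among them at 0.0328.

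Among genes well above background, 586 were higher and 481 lower (54.9% of the calls higher), with 2 members higher. Without a filter these were 1695, 2173 (43.8%) and 2. At 1.5-fold they were 41, 12 and 0. In limma, 0 genes had an adjusted p under 0.05 with normexp and loess, the deposited table, eBayes with trend, the mean over probes, no filter and the genes well above background, where 3182, 2489, 3042, 2834, 3380 and 3956 had an unadjusted p under 0.05.

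With each array alone, 477 to 875 genes were higher, 208 to 592 lower, and 2 to 3 members higher, and the median of the members was 0.09 to 0.26. No member was lower beyond 1.3-fold on both arrays under any alternative, except *Notch1*, below the filter, with normexp and centring on passing genes. Beyond the moved median, the other number of genes and the stricter threshold, the cause was not tested. The 4 members under the signal filter were dimmer than 200 in at least 1 channel, and *Dll3*, which passed, had the largest SD between arrays.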
